A study of Homo sapiens with 6 samples.

Results

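The genes described here are 32 genes of cholesterol and fatty acid synthesis and of sterol uptake and export. They were listed by name, under a rule that used no measured value but with earlier results of these data known. They were matched to array probe sets through the platform's annotation. Of the 32, 31 had a probe set assigned to them alone, among 18244 such genes in the table, and FDFT1 (squalene synthase) was not analysed here. Where a gene had several such probe sets, the brightest on average over the 6 arrays was used. Expression was measured in L428, an established human Hodgkin lymphoma cell line, on PrimeView arrays of Affymetrix, where a probe set of several short oligonucleotides reads a transcript. All cells were nucleofected, which is a form of electroporation, with 3 µg of siRNA and were cultured for 48 hours. In one group the siRNA (Silencer Select s195280) targeted BATF3, a basic leucine zipper transcription factor, and in the other it was Silencer Select Negative Control No. 1. There were 3 arrays per group. The model is limited to 1 cell line and 1 siRNA against BATF3, and the labels do not say that the arrays of a group came from separate cultures. P-values therefore measure the spread between these arrays, which may be technical.

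Cells make cholesterol from acetyl-CoA through the mevalonate pathway, which leads to farnesyl diphosphate, then to squalene and, through lanosterol, to cholesterol. Most of the enzymes are transcribed under the control of the SREBP factors. These are membrane proteins of the endoplasmic reticulum that SCAP escorts to the Golgi for cleavage when sterol is low, and that the INSIG proteins hold back when sterol is high. Fatty acid synthesis and desaturation are served mainly by SREBF1, and sterol synthesis mainly by SREBF2. Cells export excess sterol through ABCA1 and ABCG1, genes that oxysterol-sensing nuclear receptors switch on. Dividing lymphoma cells need both sterols and fatty acids for new membrane.

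BATF3 itself checked the labels. Its log2 level was 10.87, 10.76 and 10.69 in the 3 BATF3 siRNA arrays and 11.89, 12.08 and 11.94 in the 3 control siRNA arrays. The log2 level fell by 1.20 (SE 0.095), which is 0.436 of control (limma adjusted p = 0.00673; two-sided exact permutation p = 0.1, the smallest that 3 arrays against 3 allow). All 6 measured genes typical of Hodgkin cells, among them TNFRSF8 (CD30) and CCL17, read above the brightest background probe set in every array. Of 5 measured B cell genes 2 did so (PAX5 and CD79B), and 0 of 16 markers of T and NK cells, myeloid cells, fibroblasts, hepatocytes and adipocytes did. The array medians lay between 6.24 and 6.33. Background probe sets with a high G and C content (20 or more bases per probe) averaged 5.92 and 5.98 in BATF3 siRNA replicates 2 and 3. They averaged 6.46 to 6.49 in the other 4 arrays, so this background moved in part with the siRNA. A block on this background leaves BATF3 siRNA replicate 1 alone against the 3 controls. Here and below, it therefore cannot tell an effect of background from a difference of that replicate. With this background as a block, BATF3 was at −1.10 and was no longer called (limma adjusted p = 0.306). The call was also lost on leaving out BATF3 siRNA replicate 3 (−1.16, limma adjusted p = 0.0688) or control siRNA replicate 2 (−1.14, limma adjusted p = 0.0648).

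Promoter sequences were examined for what the genes share beyond the list's rule. RefSeq windows of 300 bases (250 before to 50 after a transcript start, GRCh38.p14) were found for 27 of the 32 genes, 34 windows in all, and none for ACAT2, FDFT1, SQLE, FASN and ABCG1. The CCAAT box, bound by NF-Y, was present as the letters CCAAT on either strand in 21 of the 34 windows (61.8%) and in 34.6% of all 35116 windows. The GC box GGGCGG, bound by SP1, was in 31 of the 34 (91.2%) and in 44.95% of all windows. NF-Y and SP1 are the usual partners of SREBP at sterol-responsive promoters. The sterol regulatory element, searched as TCACNCCAC on both strands, was in 1 of the 34 windows, that of SREBF2, and in 1.13% of all windows. The E-box CACGTG was in 6 of the 34, from 5 genes (ABCA1, INSIG1, LSS, SC5D and SCAP), and in 7.26% of all windows. The AP-1 element TGANTCA, the kind of site that BATF factors bind with JUN partners, was in 0 of the 34 and in 7.71% of all windows. A match is a description of the letters, and its absence says only that these letters are not in the window. Windows of 1 gene can overlap, and CCAAT, GC box, E-box and AP-1 letters were counted separately. The comparison with all windows was not matched for G and C content, which bears on how often each motif occurs.

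The upstream 250 bases are printed for SREBF2, whose window alone held the sterol element, and for HSD17B7, TMEM97 and ABCA1, the 3 genes whose BATF3 siRNA and control values did not overlap. Capitals mark the sterol element, CCAAT boxes (ATTGG on the opposite strand) and the E-box. All are written 5′ to 3′ on the gene's strand. The windows are chr22:41832855-41833104 (plus strand) for SREBF2, chr1:162790452-162790701 (plus) for HSD17B7, chr17:28318950-28319199 (plus) for TMEM97 and chr9:104928156-104928405 (minus) for ABCA1.
SREBF2: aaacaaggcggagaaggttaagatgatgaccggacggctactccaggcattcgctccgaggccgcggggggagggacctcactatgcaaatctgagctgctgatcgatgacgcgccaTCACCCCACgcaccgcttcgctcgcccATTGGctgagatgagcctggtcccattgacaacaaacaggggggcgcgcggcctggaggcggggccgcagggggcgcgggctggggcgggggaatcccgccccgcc
HSD17B7: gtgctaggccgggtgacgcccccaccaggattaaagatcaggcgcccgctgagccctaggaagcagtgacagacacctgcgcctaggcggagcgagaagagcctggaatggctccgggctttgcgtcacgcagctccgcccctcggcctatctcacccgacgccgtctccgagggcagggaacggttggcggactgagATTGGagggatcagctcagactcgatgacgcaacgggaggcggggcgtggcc
TMEM97: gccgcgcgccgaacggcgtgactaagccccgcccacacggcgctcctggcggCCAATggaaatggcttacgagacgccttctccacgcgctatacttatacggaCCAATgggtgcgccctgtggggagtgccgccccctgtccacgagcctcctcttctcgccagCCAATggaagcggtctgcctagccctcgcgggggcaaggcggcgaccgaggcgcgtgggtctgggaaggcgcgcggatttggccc
ABCA1: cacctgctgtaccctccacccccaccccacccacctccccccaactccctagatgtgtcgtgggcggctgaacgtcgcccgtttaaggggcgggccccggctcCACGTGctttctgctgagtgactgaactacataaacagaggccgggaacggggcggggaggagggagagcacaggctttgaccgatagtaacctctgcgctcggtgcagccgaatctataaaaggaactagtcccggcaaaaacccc
In these 250 bases SREBF2 held the sterol element and 1 CCAAT box. TMEM97 held 3 CCAAT boxes, HSD17B7 held 1, and ABCA1 held 1 E-box with 0 CCAAT boxes.

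None of the 31 cholesterol and lipid genes passed the threshold after BATF3 siRNA. The comparison asks whether the transcripts of this pathway changed when BATF3 was reduced. With limma and Benjamini-Hochberg adjustment over all 18244 genes, 0 of 31 were called in either direction at an adjusted p under 0.05, where 3 of all genes (0.0164%) were called, 0.00548% higher and 0.011% lower. At an unadjusted p under 0.05 there was 1 member, ABCA1 (3.23%, against 7.15% of all genes). The adjusted p of the 31 ran from 0.689 to 1.00. Changes (BATF3 siRNA minus control siRNA, log2) ran from −0.27 for TM7SF2 to +0.21 for ABCA1, 14 were positive and 17 negative, and the median was −0.0011. Over all genes the median was −0.0027 and 49.0% were positive.

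Standard errors of the 31 changes ran from 0.084 to 0.20 with a median of 0.10. The 95% confidence intervals, each for its own gene and not adjusted for their number, lay between −0.58 and +0.45. All 31 stayed inside a 1.5-fold change in either direction, as did 94.5% of all genes. FADS2, ABCA1 and ABCG1 read below the mean of the G and C rich background sets in all 6 arrays. Their intervals bound the array signal and may not bound the transcript. Leaving out 1 array, taking the array background as a block or using the most variable probe set of each gene kept 29 or 30 of the 31 inside that bound.

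**Figure D1:**
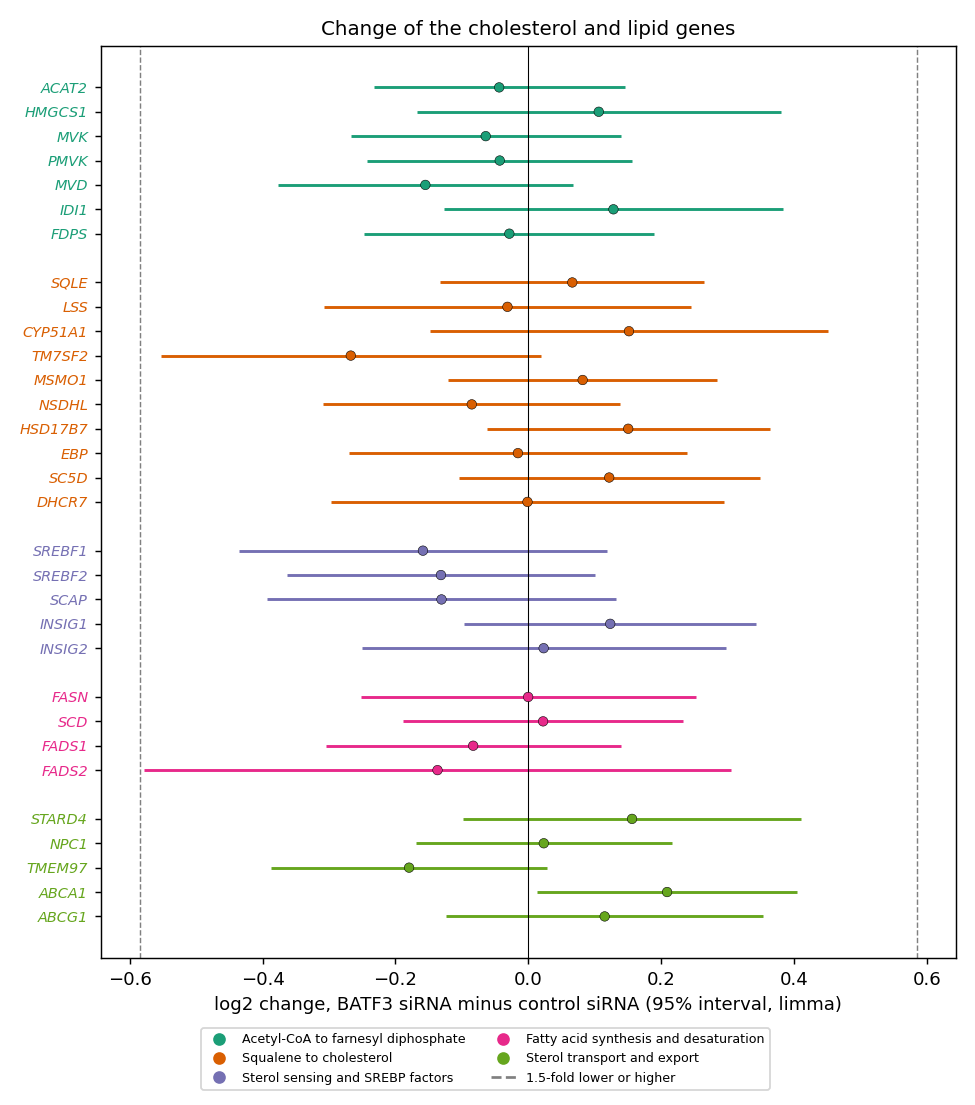
Change of each of the 31 cholesterol and lipid genes, BATF3 siRNA minus control siRNA on the log2 scale, as points with 95% confidence intervals from limma (3 arrays per group), coloured by role; dashed lines mark a 1.5-fold difference. All 31 intervals lie inside the dashed lines, and 30 include 0, the exception being ABCA1. The intervals bound the array signal, which for FADS2, ABCA1 and ABCG1 was below the G and C rich background.

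The BATF3 siRNA and control values did not overlap for 3 of the 31 (9.68%), against 12.1% of all genes, a share close to the background. HSD17B7 and ABCA1 were higher in all 3 BATF3 siRNA arrays (2 of 31, where 6.36% of all genes were higher in this way). TMEM97 was lower in all 3 (1 of 31, where 5.78% of all genes were lower).

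The 7 enzymes from acetyl-CoA to farnesyl diphosphate had a median change of −0.043, with 2 positive and 5 negative. HMGCS1, which condenses acetoacetyl-CoA with acetyl-CoA, read 11.15, 10.92 and 11.26 after BATF3 siRNA and 11.11, 10.81 and 11.09 after control siRNA, a change of +0.11 (SE 0.12). IDI1, the isopentenyl diphosphate isomerase, read 11.07, 10.97 and 11.14 against 11.06, 10.71 and 11.03, a change of +0.13 (SE 0.11). In both genes the lowest of the 6 arrays was control siRNA replicate 2, and without it the changes were 0.0078 and 0.017. Leaving out 1 other array gave 0.032 to 0.20 for HMGCS1 and 0.090 to 0.19 for IDI1. HMGCS1 and IDI1 were singled out after their values were seen.

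FDPS, which makes farnesyl diphosphate, was one of the 3 brightest members by signal, which does not rank transcripts read by different probes, and read 12.25, 11.98 and 12.17 against 12.14, 12.19 and 12.16, with overlapping groups and a change of −0.028 (SE 0.097). MVD, the mevalonate diphosphate decarboxylase, had the lowest change of these 7 at −0.15 (SE 0.099). Its value was 10.30 in BATF3 siRNA replicate 1, within the control range of 10.27 to 10.32, and 10.01 and 10.11 in replicates 2 and 3, the arrays with the lower background. With this background as a block in the fit, which leaves replicate 1 against the controls, the change was 0.0069. Without BATF3 siRNA replicate 1 it was −0.24. MVD was singled out after its values were seen. ACAT2, the acetoacetyl-CoA thiolase of the cytosol, was at −0.044 (SE 0.084). The mevalonate kinase MVK and the phosphomevalonate kinase PMVK were at −0.064 (SE 0.090) and −0.043 (SE 0.089). The second MVK probe set was at −0.27, and the mean over the MVK probe sets was at −0.17.

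Of the 11 enzymes from squalene to cholesterol 10 were measured, and their median change was +0.033 with 5 positive and 5 negative. HSD17B7, a sterol ketone reductase, read 8.65, 8.63 and 8.86 after BATF3 siRNA and 8.55, 8.60 and 8.53 after control siRNA. The groups did not overlap, but the gap between the nearest arrays was small beside the 0.13 SD of the BATF3 siRNA group. The change was +0.15 (SE 0.095; limma adjusted p = 0.814). It was 0.077 without BATF3 siRNA replicate 3 and 0.13 to 0.19 without 1 other array. HSD17B7 had 1 probe set, and its genome copies include the pseudogenes HSD17B7P1 and HSD17B7P2, so the signal may not come from this gene alone.

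TM7SF2, a sterol reductase that shares its step with the lamin B receptor, had the most negative change of all 31 at −0.27 (SE 0.13; limma adjusted p = 0.730). It read 7.76, 7.43 and 7.25 against 7.74, 7.73 and 7.77. BATF3 siRNA replicate 1 stood at the control level and replicates 2 and 3 stood below it. Replicates 2 and 3 were also the arrays with the lower background. With the background as a block, which leaves only replicate 1 against the controls, the change was 0.014. Without replicate 1 it was −0.41, and a role of the background was not tested. All 5 of its probe sets were lower, at −0.27 to −0.17. TM7SF2 was singled out after its values were seen.

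CYP51A1, the lanosterol demethylase, had the most positive change of this group at +0.15 (SE 0.13). It read 11.39, 11.33 and 11.50 against 11.40, 10.95 and 11.42, so control siRNA replicate 2 alone stood low. The change was −0.0028 without that array and 0.11 to 0.24 without 1 of the others. CYP51A1 was singled out after its values were seen. SC5D, the lathosterol desaturase, was at +0.12 (SE 0.10) with positive changes in all 4 SC5D probe sets (0.043 to 0.12).

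The other enzymes of this group were nearer 0. SQLE, the squalene epoxidase that limits the rate of this branch, was at +0.066 (SE 0.088) and the methylsterol oxidase MSMO1 at +0.082 (SE 0.090). NSDHL, the sterol dehydrogenase that follows it, was at −0.085 (SE 0.099), the lanosterol synthase LSS at −0.031 (SE 0.12), the isomerase EBP at −0.015 (SE 0.11) and DHCR7, the last step to cholesterol, at −0.0011 (SE 0.13). DHCR7 varied within the groups, with SDs of 0.24 after BATF3 siRNA and 0.13 after control siRNA (n = 3 each).

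The 5 genes of sterol sensing had a median change of −0.13, with 0 called. SREBF2, the main factor of sterol synthesis, read 8.86, 8.54 and 8.80 after BATF3 siRNA and 8.85, 8.86 and 8.88 after control siRNA. The BATF3 siRNA arrays spread from the control level downwards, with replicate 2 lowest, and the change was −0.13 (SE 0.10; 95% interval −0.36 to 0.10; limma adjusted p = 0.849). All 3 SREBF2 probe sets were lower, at −0.19 to −0.094. With the array background as a block the change was −0.0058, and without BATF3 siRNA replicate 1 it was −0.19.

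SREBF1, the factor of fatty acid synthesis, read 7.56, 7.36 and 7.40 against 7.43, 7.85 and 7.51. Here control siRNA replicate 2 was the highest of the 6 arrays and the groups overlapped. The change was −0.16 (SE 0.12, 95% interval −0.44 to 0.12). It was −0.031 without that control array and −0.24 to −0.12 without 1 other array. Its other two probe sets were higher, with the highest at +0.084, so the probe sets disagreed in direction.

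SCAP, the escort of the SREBP factors, read 7.97, 7.80 and 7.58 against 7.785, 7.997 and 7.960, overlapping groups with a change of −0.13 (SE 0.12). With the background as a block it was +0.056, and without BATF3 siRNA replicate 1 it was −0.22. The retention factor INSIG1, itself a strong SREBP target, read 12.24, 12.30 and 12.40 against 12.27, 12.04 and 12.25. The groups overlapped, control siRNA replicate 2 was lowest, and the change was +0.12 (SE 0.098; 95% interval −0.096 to 0.34; limma adjusted p = 0.849). All 3 INSIG1 probe sets were higher, by 0.12 to 0.27. The change was 0.052 without control siRNA replicate 2 and 0.082 to 0.16 without 1 other array. It was 0.050 with the background as a block. INSIG2, the second retention factor, read 11.35, 10.94 and 11.26 against 11.24, 11.04 and 11.20, a change of +0.023 (SE 0.12) that turned to −0.0071 under quantile normalization.

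The 4 genes of fatty acid synthesis and desaturation had a median change of −0.041, with 1 positive. SCD, the stearoyl-CoA desaturase, was among the 3 brightest members and read 12.66, 12.64 and 12.69 against 12.72, 12.50 and 12.71. The BATF3 siRNA arrays lay within the control range, and the change was +0.022 (SE 0.093), or −0.0021 under cyclic loess. FASN, the fatty acid synthase, read 7.98, 7.80 and 7.63 against 7.67, 7.90 and 7.84, a change of −3.7e-05 (SE 0.11) that was above 0 under median centring, cyclic loess and quantile normalization. FASN was singled out after its values were seen.

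The desaturase FADS1 was at −0.083 (SE 0.099). FADS2, which acts before it on polyunsaturated fatty acids, was one of the 3 dimmest members and read 6.14, 5.39 and 5.63 against 6.18, 5.71 and 5.68. It was the least precise of the 31 (change −0.14, SE 0.20; 95% interval −0.58 to 0.31), with 1 high array in each group. It read below the mean of the G and C rich background sets in all 6 arrays. With the background as a block the change was +0.28, and without BATF3 siRNA replicate 1 it was −0.34.

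Of the 5 genes of sterol transport and export 4 had a positive change, with a median of +0.12 and 0 called. ABCA1, the exporter that loads cholesterol on apolipoprotein, read 3.40, 3.43 and 3.51 after BATF3 siRNA and 3.31, 3.21 and 3.19 after control siRNA. All 3 BATF3 siRNA arrays were above all 3 controls, by a change of +0.21 (SE 0.087; fold 1.16; 95% interval 0.014 to 0.40; limma adjusted p = 0.689). All 3 ABCA1 probe sets were higher, by 0.072 to 0.21. The level was below the mean of the G and C rich background sets in all 6 arrays, and above the 2.06 to 2.20 averaged by the background sets poorest in G and C (15 or fewer per probe). Which background applies to ABCA1 depends on its probe sequences, which were not analysed here, and the size of its difference is uncertain for that reason.

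ABCG1, which exports sterol to lipoprotein particles, read 5.25, 5.33 and 5.35 against 5.265, 4.998 and 5.328, with overlapping groups and a change of +0.12 (SE 0.11). Control siRNA replicate 2 was the lowest array, and the change was 0.016 without it and 0.095 to 0.18 without 1 other array. With the background as a block it was 0.054. The other 4 ABCG1 probe sets were also higher, by 0.16 to 0.52. The probe set at +0.52 had an adjusted p of 0.559 when all 49393 probe sets were tested with limma. The mean over the ABCG1 probe sets was at +0.28 (limma adjusted p = 0.493). The chosen probe set read below the G and C rich background in all 6 arrays.

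TMEM97, the sigma-2 receptor and a partner of NPC1, read 11.63, 11.40 and 11.53 after BATF3 siRNA and 11.66, 11.72 and 11.70 after control siRNA. The groups did not overlap, and the nearest arrays, BATF3 siRNA replicate 1 and control siRNA replicate 1, nearly met. The change was −0.18 (SE 0.092; fold 0.883; 95% interval −0.39 to 0.029; limma adjusted p = 0.759). Of 5 TMEM97 probe sets 4 were lower and 1 was higher, at +0.12. With the background as a block the change was −0.067, and without BATF3 siRNA replicate 1 it was −0.24.

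STARD4, a sterol carrier of the cytosol, read 10.55, 10.62 and 10.82 against 10.57, 10.33 and 10.62, a change of +0.16 (SE 0.11). The 5 STARD4 probe sets all had positive changes (0.0098 to 0.31). The change was 0.067 without control siRNA replicate 2 and 0.078 to 0.21 without 1 other array. It was 0.046 with the background as a block. STARD4 was singled out after its values were seen. NPC1, which moves sterol out of lysosomes, was at +0.024 (SE 0.086), and −0.0075 with array weights.

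**Figure D2:**
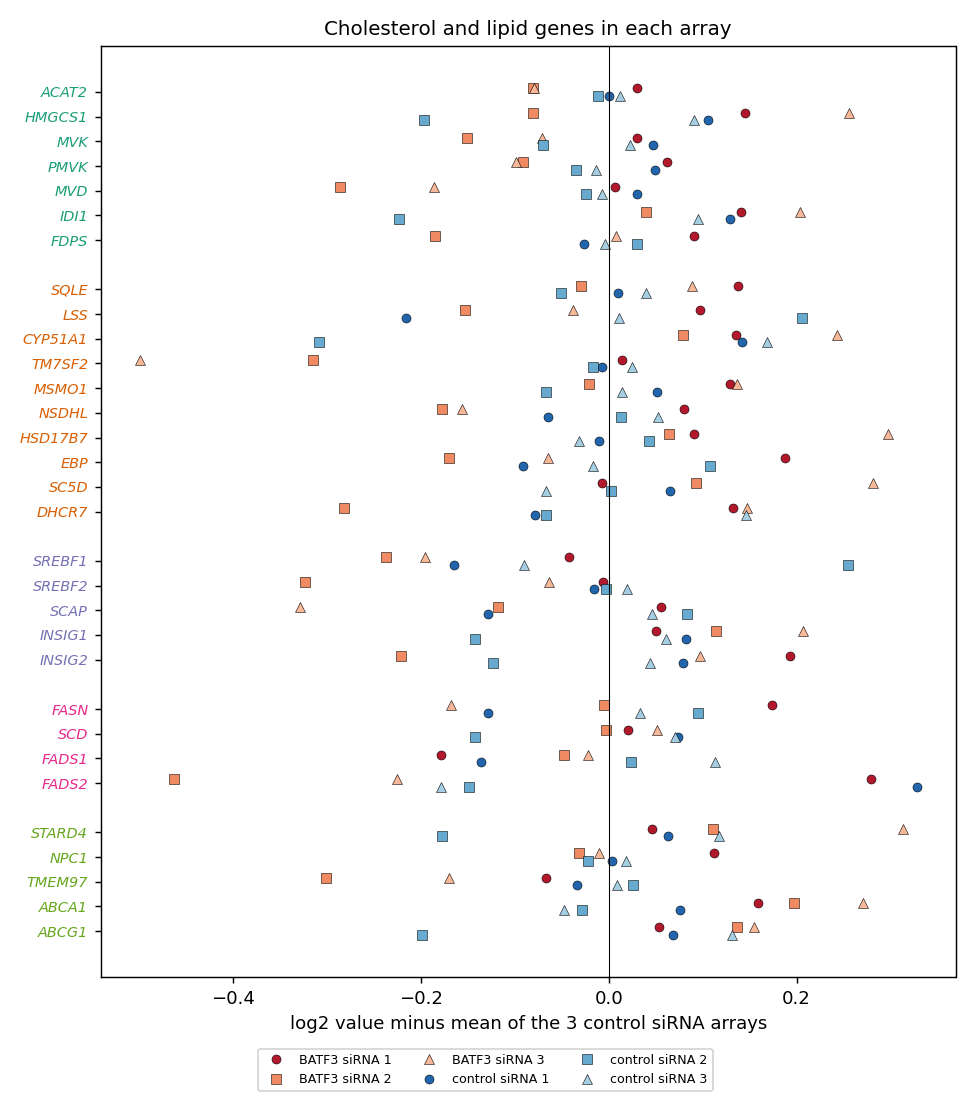
Log2 value of each gene in each of the 6 arrays, minus the mean of its 3 control siRNA arrays; red symbols are BATF3 siRNA and blue symbols control siRNA, circles, squares and triangles replicates 1, 2 and 3. The colours interleave for 28 of the 31 genes, and control siRNA replicate 2 lies at the left for HMGCS1, IDI1, CYP51A1, INSIG1, STARD4 and ABCG1.

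The arrays differed in how often they held the lowest value of a gene. BATF3 siRNA replicate 2 was the lowest of the 6 arrays for 13 of the 31 genes (41.9%), against 18.2% of all genes, and the highest for 0. Control siRNA replicate 2 was the lowest for 9 (29.0%), against 18.8% of all genes. Among the controls alone, replicate 2 lay below both others for 16 of the 31 (51.6%, against 33.1% of all genes). These were ACAT2, HMGCS1, MVK, PMVK, MVD, IDI1, SQLE, CYP51A1, TM7SF2, MSMO1, INSIG1, INSIG2, SCD, STARD4, NPC1 and ABCG1. It lay above both others for 8 (25.8%, against 45.8% of all genes), which were FDPS, LSS, HSD17B7, EBP, SREBF1, SCAP, FASN and TMEM97. The cause of this pattern was not tested.

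Within the BATF3 siRNA group, replicate 1 read above both others for 18 of the 31 (58.1%, against 40.7% of all genes). The median difference of the 31 genes from the control mean was +0.080 in replicate 1, −0.082 in replicate 2 and −0.010 in replicate 3, and −0.024 to +0.023 in the control arrays. In BATF3 siRNA replicate 1 the background stood at the control level. With the background as a block, 26 of the 31 changes were positive, with a median of +0.080, against 53.1% and +0.010 for all genes. Without BATF3 siRNA replicate 1, 12 were positive and the median was −0.067. The sign of the list's small median therefore turned with the array chosen, and no member was called in either fit.

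**Figure D3:**
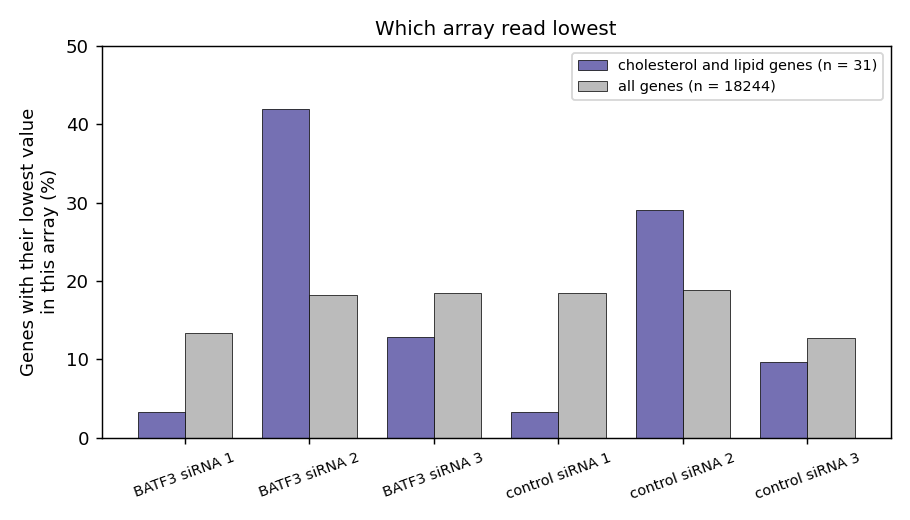
Share of genes (percent) whose lowest value of the 6 arrays fell in each array, for the 31 cholesterol and lipid genes and for all 18244 genes. BATF3 siRNA replicate 2 (41.9%) and control siRNA replicate 2 (29.0%) held most of the lowest values of the 31 genes.

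The 31 genes had 89 probe sets of their own, of which 44 had a positive and 45 a negative change. Of the 26 genes with several probe sets, all were higher for 8 (HMGCS1, IDI1, SC5D, INSIG1, INSIG2, STARD4, ABCA1 and ABCG1). All were lower for 9 (ACAT2, MVK, PMVK, FDPS, TM7SF2, EBP, SREBF2, SCAP and FADS2), and they were mixed for 9. Probe sets of a gene share its RNA and are not replicates. When all 49393 probe sets were tested with limma, 0 of the 89 passed (smallest adjusted p 0.559), and 6 had an unadjusted p under 0.05 (6.74%, against 7.16% of all probe sets).

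**Figure D4:**
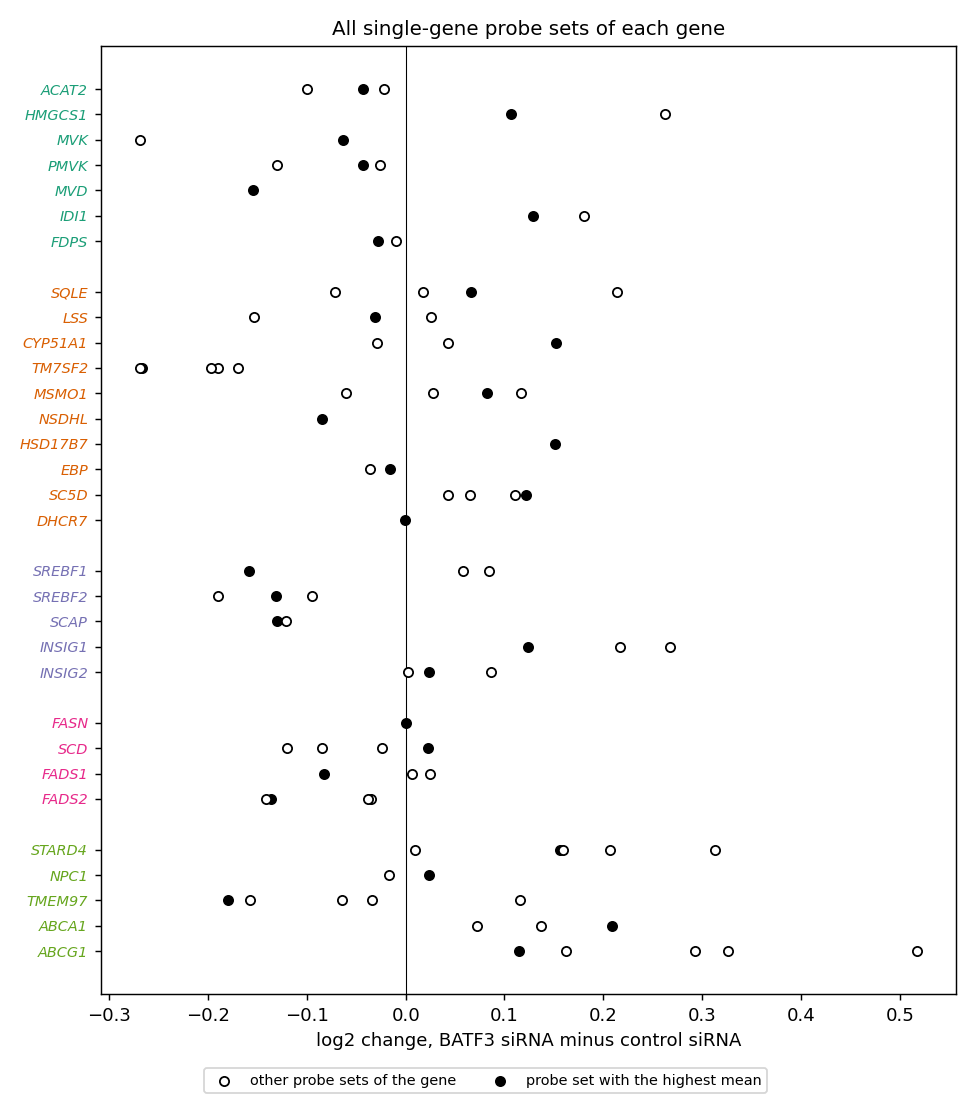
Change of every single-gene probe set of the 31 genes, BATF3 siRNA minus control siRNA on the log2 scale; filled points are the probe sets that stand for the genes, open points the others. Of 89 probe sets 44 lie right of 0 and 45 left, and the points farthest right are those of ABCG1.

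Other genes of lipid metabolism, from lists that do not overlap the 31 and were also chosen with earlier results known, were set beside them. Of 43 listed 39 were measured and 0 were called in either direction, where 0.0164% of all genes were called. A positive change was seen in 20 (51.3%, against 49.0% of all genes), and the median was +0.0070. At an unadjusted p under 0.05 in limma there were 4 (10.3%, against 7.15% of all genes). These shares of all genes also apply to the counts of the single lists below. The groups did not overlap for 4 of the 39 (10.3%, against 12.1% of all genes).

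Among genes of isoprenoid branches and SREBP processing 0 of 9 were called and 6 were positive (median +0.036). MBTPS2, the site-2 protease that releases the active SREBP fragment, read 8.64, 8.64 and 8.86 after BATF3 siRNA and 8.63, 8.36 and 8.35 after control siRNA, a change of +0.27 (SE 0.11; limma adjusted p = 0.682). GGPS1, which makes geranylgeranyl diphosphate from the farnesyl form, read 9.23, 9.37 and 9.34 against 9.15, 9.13 and 9.06, a change of +0.20 (SE 0.087; limma adjusted p = 0.697). For neither gene did the groups overlap. The other 2 GGPS1 probe sets were at −0.0051 and 0.032, and the mean over its probe sets was at 0.075. The second MBTPS2 probe set was at 0.23.

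Both measured nuclear receptor pathway genes had positive changes. MYLIP, an oxysterol-induced ubiquitin ligase that removes lipoprotein receptors, read 10.22, 10.10 and 10.13 against 9.98, 9.85 and 9.90. All BATF3 siRNA arrays were above all controls, by +0.24 (SE 0.087; limma adjusted p = 0.622). The other 2 MYLIP probe sets were at 0.016 and 0.60. NR1H3, the oxysterol receptor LXR alpha, was at +0.10 (SE 0.10) and read below the G and C rich background in every array.

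Of 13 measured genes of fatty acid supply and elongation 0 were called and 6 were positive (median −0.0017). ACSL4, which activates polyunsaturated fatty acids, was at +0.30 (SE 0.14). ACSL4 was at 0.016 with the background as a block and at 0.44 without BATF3 siRNA replicate 1, and its second probe set was at 0.051. ACACA, the acetyl-CoA carboxylase, was at −0.15 (SE 0.091), and at −0.067 with the block. Of 15 genes of storage, uptake and intracellular transport 0 were called and 6 were positive (median −0.017). PNPLA2, the lipase that opens stored triglyceride, had the smallest p of all 39. It read 5.59, 5.20 and 5.61 against 5.92, 6.04 and 6.01, so the groups did not overlap, with a change of −0.52 (SE 0.12; limma adjusted p = 0.418). All 3 of its probe sets were lower, at −0.52 to −0.076, and the chosen one read below the G and C rich background in all 6 arrays. STARD3, a sterol carrier of endosomes, was at −0.16 (SE 0.12). It was at −0.0039 with the background as a block and at −0.23 without BATF3 siRNA replicate 1.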

How the data were processed

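Total RNA from 6 samples of L428 cells was hybridised as biotin-labelled cRNA to PrimeView arrays. The authors' deposited table gave 1 log2 value per probe set and array. The affy package is named, without a version, in the submitters' processing notes. The steps of background correction, normalization and summarization were not given in the sources used here, and base 2 was inferred from the range. If the arrays were scaled to a common level, a shift of most transcripts would be hidden. Of 49495 probe sets, 45278 had 1 gene, 1333 several and 2782 none, besides 102 controls; only the first kind was used. Gene symbols were checked against a RefSeq table through their Entrez identifiers (45214 found, 0 changed). Differences were fitted in R 4.3.3 by limma's lmFit and eBayes (version 3.58.1; two-sided, 3 arrays against 3, no covariate), with Benjamini-Hochberg adjustment over 18244 genes and a threshold of 0.05. The fit was tested on simulated data.

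The members and lists were chosen with earlier results of these data known. Values per array are given for BATF3, the 5 sterol sensing genes, members whose groups did not overlap or whose unadjusted p was under 0.05, and the 3 brightest and 3 dimmest, and for HMGCS1, IDI1, MVD, CYP51A1, TM7SF2, FASN and STARD4, which were added after their values were seen; of the further genes, the 2 with the smallest p in each list are named. Alternatives were other scalings, probe set choices, a filter on dim genes, variance models, array weights, blocks and leaving out each array. The number of arrays limits the precision.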

Additional observations from a re-analysis of the deposited data

How the results depend on the processing

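Under each of the 16 alternatives 0 of the 31 members and 0 of the 39 further lipid genes were called in limma, and the smallest adjusted p of a member was 0.151, for TM7SF2 with array weights. At an unadjusted p under 0.05 in limma there were 0 to 6 members. The 6 came with array weights, where 3312 of the 18244 genes passed, a share close to that of the 31. With the replicate block, among others, there were 0 members, where 1302 genes passed. All-gene calls were 3, but 25 with array weights (0.38 and 3.85 for control siRNA replicates 2 and 3), 12 with an intensity trend and robust prior, 9 with the filter on dim genes (28 members kept), 5 with the most variable probe set, 0 with the array background as a block, and 0 to 2 with 1 array left out, the 0 on leaving out BATF3 siRNA replicate 3 or, likewise, control siRNA replicate 2. BATF3 was at −1.10 with the background block (limma adjusted p = 0.306, within 3.8e-05 to 0.306 over the alternatives). It lay between −1.24 and −1.14 with 1 array left out, where the call was lost on leaving out BATF3 siRNA replicate 3 (0.0688) or, likewise, control siRNA replicate 2 (0.0648). The members' median was 0.080 with the background block and −0.067 to 0.050 with 1 array left out. Of 493 member values 50 changed sign, none of them called, and 11 members kept their sign in all. Some of the 493 could not change sign by construction. The replicate block, the intensity trend and robust prior and the filter on dim genes leave each change as in the main fit. The 5 members with 1 probe set cannot move with the choice of probe set. The share of 50 in 493 therefore overstates how stable the signs are.

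With the background block these values changed sign: ACAT2 0.030, MVK 0.030, PMVK 0.062, MVD 0.0069, FDPS 0.091, LSS 0.097, TM7SF2 0.014, NSDHL 0.080, EBP 0.19, SC5D −0.0077, DHCR7 0.13, SCAP 0.056, FASN 0.17 and FADS2 0.28. With the most variable probe set they were SQLE −0.072, LSS 0.026, SCD −0.12, NPC1 −0.017 and TMEM97 0.12. Median centring turned EBP to 0.0087, DHCR7 to 0.023 and FASN to 0.024, and quantile normalization turned INSIG2 to −0.0071 and FASN to 0.0020. Array weights gave INSIG2 −0.039, SCD −0.029 and NPC1 −0.0075, cyclic loess FASN 0.0055 and SCD −0.0021, and the mean of probe sets SCD −0.052. With 1 array left out the ranges that crossed 0 were FDPS −0.088 to 0.050, LSS −0.14 to 0.072, CYP51A1 −0.0028 to 0.24, EBP −0.12 to 0.062, DHCR7 −0.075 to 0.14, INSIG2 −0.062 to 0.15, FASN −0.087 to 0.084, SCD −0.049 to 0.059, FADS2 −0.34 to 0.027 and NPC1 −0.021 to 0.051. The background block and the left-out arrays leave fewer arrays in the comparison. The cause of these sign changes was not tested under any alternative.

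The labels do not say whether the replicate numbers pair the arrays. Same-numbered deviations from the group means correlated across genes at 0.029, 0.15 and −0.025 for numbers 1, 2 and 3. The 0.15 was the highest of all pairs, but not every array correlated best with its own number. Deviations sum to 0 within each group of 3, so these correlations cannot settle whether the arrays were paired. With the replicate block 3 genes and 0 members were called. In 3 arrays against 3 this block leaves every change as in the main fit by construction. The members' median of −0.0011 was therefore fixed in advance and does not bear on pairing. The background of probe sets rich in G and C limits the dim genes, FADS2, ABCA1 and ABCG1 among them.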
